A study of Rattus norvegicus with 2 samples.

Results

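The solute carriers (Slc) are membrane proteins that move small molecules and ions across the plasma membrane and the membranes of organelles. Their genes were taken from the deposited table by the name pattern Slc, number, a, number, leaving out Slc18a2, Slc2a1, Slc2a3, Slc16a3 and Slc7a11. That pattern matched 189 names, of which 169 had 20 or more reads over both libraries, out of 12102 genes that reached this minimum. Of the 169, 166 were transporter genes in 45 families and 3 were names with a suffix (Slc7a6os, Slc4a1ap and Slc9a3r1) that stand for neighbouring or interacting proteins. By solute there were 24 amino acid carriers, 17 sugar and nucleotide sugar carriers, 27 carriers of inorganic ions, 21 of trace metals, 35 mitochondrial carriers of the Slc25 family and 42 carriers of other solutes.

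Poly(A)-selected RNA was sequenced from RBL-2H3 cells, a leukemia line of rat basophils that degranulates through its IgE receptor. One library came from wild-type cells incubated with IgE and 1 from wild-type cells given no treatment. The labels name no IgE dose and no incubation time, and they do not say whether antigen followed. The IgE library held 26268330 counted reads and the untreated library 20917968. There were no replicate libraries, so each difference is between 1 library and 1 library and was not tested against a spread between cultures.

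Transporters couple uptake to gradients of sodium, protons or the counter-transported solute, or let a solute run down its own gradient. In mast cells and basophils they supply amino acids for growth, set cytosolic pH and chloride, and handle the zinc, calcium and amines of the secretory granules. Most Slc25 carriers sit in the inner mitochondrial membrane and exchange nucleotides, phosphate, metabolites and cofactors with the cytosol.

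The cells' identity and the composition of the RNA were checked first. All 8 mast cell and basophil markers listed were counted in both libraries, from Tph1 with 300 reads in the IgE and 260 in the untreated library to Gata2 with 60311 and 52028. Of 24 listed markers of macrophages, neutrophils, lymphocytes, fibroblasts and epithelia, 8 passed the minimum, and apart from Col3a1 (6619 reads in the IgE and 5904 in the untreated library) none exceeded 296 reads in a library. Cytosolic ribosomal protein transcripts were above 0 in 54 of 55 genes, with a median log2 fold (IgE over untreated) of 0.29. Transcripts of the mitochondrial genome were above 0 in 13 of 13, with a median of 0.16. The median over all 12102 tested genes was 0.00. What part this shift of ribosomal protein transcripts and mitochondrial genome transcripts has in the values below was not tested.

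The solute carrier transcriptome was nearly level between IgE-treated and untreated cells. Together the 169 genes took 0.959% of the reads in the IgE library and 0.960% in the untreated library. Slc25a53, Slc47a2 and Slc41a2 were the 3 genes at least 2-fold higher with IgE, and 0 passed 2-fold downward. That was 1.78% of the 169 upward, against 1.33% of all tested genes upward and 1.30% downward. The 169 log2 folds had a median of 0.00, with 86 above and 83 below 0. CPM values are reads set against the effective size of their library, and the log2 folds are computed with a prior of 0.5 counts, which understates the differences of weakly counted genes.

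Agreement was closest where reads were many. Among the 121 solute carriers with 500 or more reads none was 2-fold apart. Of all 8369 genes of that depth, only 4 were at least 2-fold higher and 0 lower. The SD of the log2 fold was 0.16 over these solute carriers, against 0.17 over the 8369 genes. Among the 67 solute carriers with 2000 or more reads the SD was 0.11, against 0.14 over 5079 genes. At 1.5-fold, 5 solute carriers were higher and 5 lower, each 2.96% of the 169, where the shares over all tested genes were 3.66% and 3.53%. For 32 members the exact 95% interval of the read ratio lay wholly above no difference and for 28 wholly below it. These 60 are 35.5% of the 169, against 38.5% of all tested genes. These are Clopper-Pearson intervals. They cover counting error only, because PCR duplicates cannot be recognised in the counts and 1 culture a condition was sequenced.

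**Figure D1:**
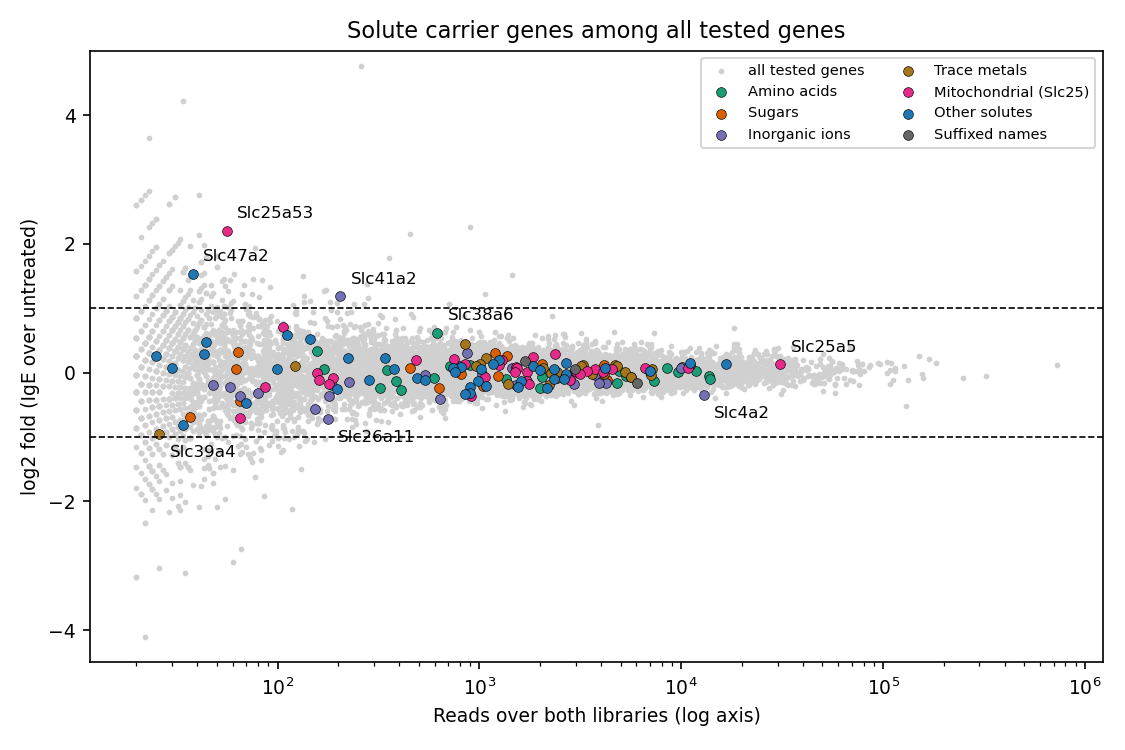
Log2 fold (IgE over untreated) against the reads over both libraries, on a log axis, for all tested genes in grey and the solute carriers in colour by solute, with dashed lines at 2-fold. Slc25a53, Slc47a2 and Slc41a2 are the 3 coloured points above the upper line, and no coloured point lies below the lower one.

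The 3 genes past 2-fold were all weakly counted. Slc41a2, a magnesium transporter of the plasma membrane and endomembranes, had 151 reads in the IgE library and 53 in the untreated one. This is 5.77 CPM with IgE and 2.53 CPM untreated, or 2.27 times the untreated level, with a log2 fold of 1.18 and an interval from 0.73 to 1.67. It was the 1 solute carrier with 100 or more reads that passed 2-fold, where 0.203% of genes of that depth passed it upward and 0.145% downward. Its relatives were level or slightly lower. Slc41a1, the sodium-magnesium exchanger, stood at 85.7 CPM with IgE and 95.3 CPM untreated (-0.15, -0.24 to -0.07), and Slc41a3, its mitochondrial relative, at 62.1 and 62.2 CPM.

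Slc25a53, a mitochondrial carrier whose substrate is not established, had 48 reads with IgE and 8 untreated, or 1.83 and 0.381 CPM (log2 2.20, 1.17 to 3.56). Slc47a2, which encodes the proton-coupled organic cation exporter MATE2, had 30 and 8 reads, or 1.15 and 0.381 CPM (1.54, 0.43 to 2.92). With a prior of 5 counts the log2 folds were 1.79 for Slc25a53, 1.19 for Slc47a2 and 1.13 for Slc41a2, so all 3 stayed past 2-fold. In RefSeq the span of Slc25a53 overlaps that of Zcchc18, which had 29 reads with IgE and 16 untreated. No label or header says whether the authors' counting used strand, so reads of overlapping genes cannot be told apart. In all, the RefSeq spans of 32 of the 169 members overlap that of another gene with reads here. Those described below are Slc38a6, Slc26a11 and Slc39a5, whose neighbours are given with them, and Slc2a6, Slc3a1, Slc5a3, Slc20a2, Slc24a5, Slc25a11, Slc25a25, Slc25a35, Slc25a40, Slc25a46, Slc26a1, Slc26a10, Slc27a1, Slc31a1, Slc35a1, Slc39a11 and Slc52a2. In the authors' deposited table, whose p-values come from 1 library a group, the adjusted p was 0.0220 for Slc25a53, 0.0378 for Slc41a2 and 0.454 for Slc47a2.

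The bases just before the start of these 3 genes are shown because they were the members past 2-fold, together with Slc38a6, described below. Sequences are from RefSeq on GRCr8, each covering the 250 bases before the start, 5′ to 3′ on the gene's strand. Slc25a53 lies at chrX:105111937-105112186 on the minus strand, Slc41a2 at chr7:22271063-22271312 on the plus strand (the first of 2 starts listed), Slc47a2 at chr10:46532955-46533204 on the minus strand, and Slc38a6 at chr6:97723276-97723525 on the plus strand. Capitals mark the E-box CACGTG in Slc47a2 and the cAMP response element TGACGTCA in Slc38a6, found by a search of both strands.
Slc25a53: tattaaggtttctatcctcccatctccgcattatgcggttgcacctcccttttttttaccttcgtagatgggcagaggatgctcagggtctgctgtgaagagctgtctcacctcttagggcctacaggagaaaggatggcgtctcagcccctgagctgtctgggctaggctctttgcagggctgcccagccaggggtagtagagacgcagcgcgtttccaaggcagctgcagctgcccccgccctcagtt
Slc41a2: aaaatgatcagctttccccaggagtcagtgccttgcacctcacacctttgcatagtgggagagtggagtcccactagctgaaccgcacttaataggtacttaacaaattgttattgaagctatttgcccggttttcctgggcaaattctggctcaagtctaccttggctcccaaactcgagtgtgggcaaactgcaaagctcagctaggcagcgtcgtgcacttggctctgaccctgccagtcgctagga
Slc47a2: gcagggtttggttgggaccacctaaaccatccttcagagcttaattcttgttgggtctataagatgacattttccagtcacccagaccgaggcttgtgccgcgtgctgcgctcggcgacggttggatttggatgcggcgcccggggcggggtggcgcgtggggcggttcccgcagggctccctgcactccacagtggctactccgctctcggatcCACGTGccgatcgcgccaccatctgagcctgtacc
Slc38a6: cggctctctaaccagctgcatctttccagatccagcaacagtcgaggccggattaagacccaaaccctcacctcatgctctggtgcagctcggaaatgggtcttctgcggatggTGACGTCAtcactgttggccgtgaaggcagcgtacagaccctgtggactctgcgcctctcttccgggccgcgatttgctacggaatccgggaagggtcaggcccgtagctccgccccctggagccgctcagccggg
The windows of Slc25a53 and Slc41a2 held none of the 4 motifs searched, which were these 2, the AP-1 site TGANTCA and the EGR site GCGTGGGCG. A match of letters is a description of the window and not a bound site.

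Amino acid carriers form the first solute group. RBL-2H3 cells counted many reads for the sodium-coupled neutral amino acid carriers of the Slc38 family and for the large neutral amino acid exchangers of the Slc7 family with their shared heavy chain Slc3a2. Of 24 genes 0 were 2-fold apart, 11 were above and 13 below 0, and the median log2 fold was -0.05. Slc7a5, which exchanges leucine and other large neutral amino acids for glutamine, stood at 205 CPM with IgE and 204 CPM untreated. Slc7a6, an exchanger of cationic and neutral amino acids, stood at 148 CPM in both libraries. Slc3a2, the glycoprotein chain that carries both to the surface, was at 183 and 175 CPM (log2 0.07, 0.01 to 0.13).

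Slc38a6, a member of the sodium-coupled neutral amino acid family, departed most within this group. It had 406 reads with IgE and 212 untreated, or 15.5 and 10.1 CPM, which is 1.53 times the untreated level (log2 0.62, 0.37 to 0.86). It was the 1 solute carrier of 121 with 500 or more reads past 1.5-fold (0.826%). Of all genes of that depth, 0.347% passed 1.5-fold upward and 0.072% downward. The RefSeq span of Slc38a6 overlaps that of Trmt5, which had 804 reads with IgE and 707 untreated (log2 -0.13). The other 7 Slc38 genes lay between -0.12 and 0.12. Among them, Slc38a2, the system A carrier that responds to amino acid shortage, was at 253 CPM with IgE and 249 CPM untreated. Slc38a1, another glutamine carrier, was at 149.7 and 163 CPM (-0.12, -0.19 to -0.06), and Slc38a10 at 286 and 306 CPM (-0.10, -0.15 to -0.05). Slc38a9, the lysosomal arginine sensor that signals to mTORC1, was at 19.9 and 18.3 CPM (0.12, -0.07 to 0.32).

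The remaining amino acid carriers ran from slightly higher to slightly lower. Slc6a12, the betaine and GABA transporter, was next highest with 96 reads with IgE and 61 untreated (log2 0.33, -0.14 to 0.82). Slc6a6, the taurine transporter, was counted at 286 CPM with IgE and 297 CPM untreated (-0.06, -0.10 to -0.01). Slc1a5, the glutamine transporter ASCT2, was at 96.7 and 109 CPM (-0.17, -0.25 to -0.09), and its relative Slc1a4 at 83.4 and 86.2 CPM. Slc7a1, the arginine and lysine transporter, was at 111 and 115 CPM. The lowest were Slc36a1, a proton-coupled amino acid carrier of lysosomes (-0.28, -0.56 to 0.01), Slc3a1, the heavy chain of the cystine carrier (-0.24, -0.56 to 0.09), and Slc43a2, a facilitator of large neutral amino acids (-0.24, -0.36 to -0.11). Slc43a2 had 1025 reads with IgE and 967 untreated. Slc66a1, which exports cationic amino acids from lysosomes, had 322 and 272 reads (-0.08).

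**Figure D2:**
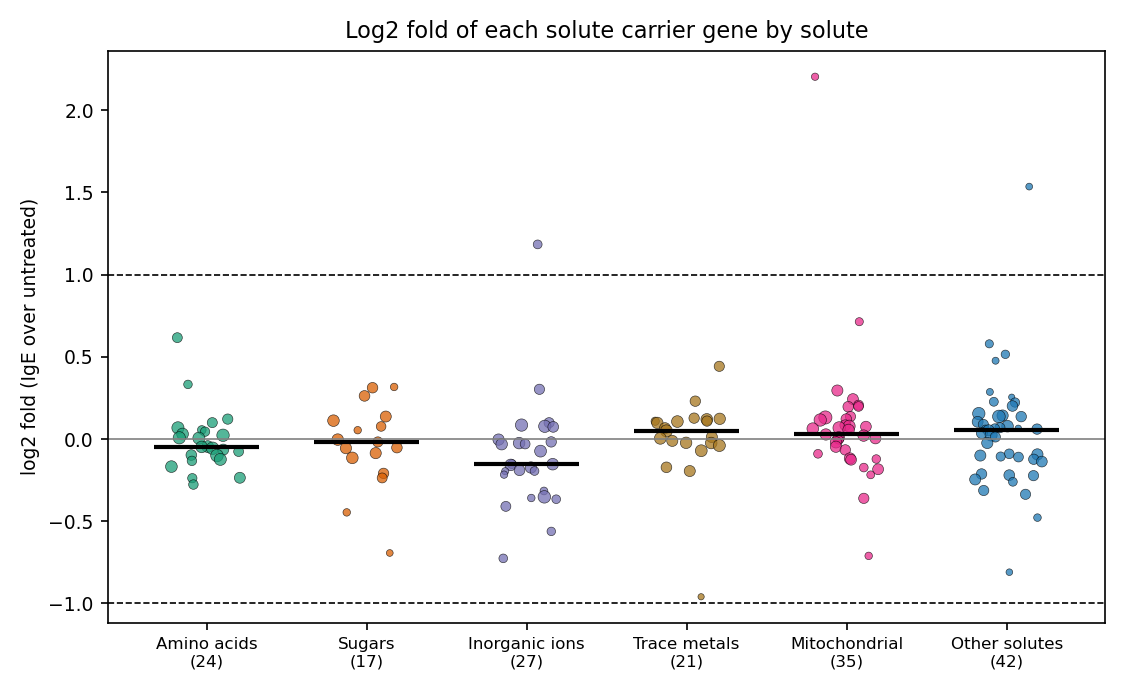
Log2 fold (IgE over untreated) of each of 166 transporter genes by solute, with the number of genes in brackets, 1 point a gene (larger points have more reads), black bars at the group medians and dashed lines at 2-fold. The medians lie between -0.15 for inorganic ions and 0.06 for other solutes.

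Sugar and nucleotide sugar carriers differed little. Of 17 genes 0 were 2-fold apart, 7 were above and 10 below 0, and the median was -0.02. The highest with 100 or more reads was Slc50a1, a sugar efflux carrier of the SWEET family, with 730 reads in the IgE and 471 in the untreated library, or 27.9 and 22.4 CPM (log2 0.31, 0.14 to 0.48). Next came Slc35a5, a nucleotide sugar carrier of the Golgi, at 31.5 CPM with IgE and 26.3 CPM untreated (0.26, 0.11 to 0.42), and Slc35a1, which brings CMP-sialic acid into the Golgi, at 45.2 and 41.1 CPM (0.14, 0.01 to 0.27). Slc35a2, the UDP-galactose carrier, was at 55.7 and 57.9 CPM (-0.06), and Slc35a4 was lower, at 88.1 and 95.4 CPM (-0.11, -0.20 to -0.03).

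Among the facilitative hexose carriers of the Slc2 family, 6 of 8 genes reached the minimum. Slc2a6, a lysosomal member of the family, had the most reads of these, at 90.7 CPM with IgE and 83.9 CPM untreated (log2 0.11, 0.02 to 0.20). Slc2a8, an intracellular glucose carrier, was at 20.7 and 23.9 CPM (-0.21, -0.39 to -0.03). Slc2a9, a urate carrier, was at 9.85 and 9.34 CPM. Few reads came from Slc2a4, the insulin-responsive carrier of muscle and fat, with 31 with IgE and 34 untreated, from Slc2a12 with 16 and 21, and from Slc2a7 with 39 and 25. For these 3 the counting interval included no difference. Slc37a3, an endoplasmic reticulum protein of the sugar phosphate family, was lowest with 100 or more reads (323 and 305 reads, -0.24, -0.47 to -0.01), while Slc37a4, which carries glucose 6-phosphate into the endoplasmic reticulum, had 450 and 365 reads (-0.02). Slc5a3, the sodium-coupled inositol carrier, had 674 and 560 reads (-0.05), and Slc45a3, of the sucrose carrier family, stood at 84.6 and 84.8 CPM.

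Carriers of inorganic ions were the group with the lowest median. Of 27 genes 1, Slc41a2, passed 2-fold upward and 0 downward, 6 were above and 21 below 0, and the median log2 fold was -0.15. Over all tested genes 48.9% were below 0, and in this group 77.8%. Their summed level was 1416 CPM with IgE and 1500.0 CPM untreated. Without Slc4a2, described below, the sums were 1173 CPM with IgE and 1189 CPM untreated. The median was -0.07 over the 23 ion carriers with 100 or more reads. The 6 genes above 0 were all among these 23, and most of the 23 were below 0. What part the weakly counted genes have in the group median was not tested.

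**Figure D3:**
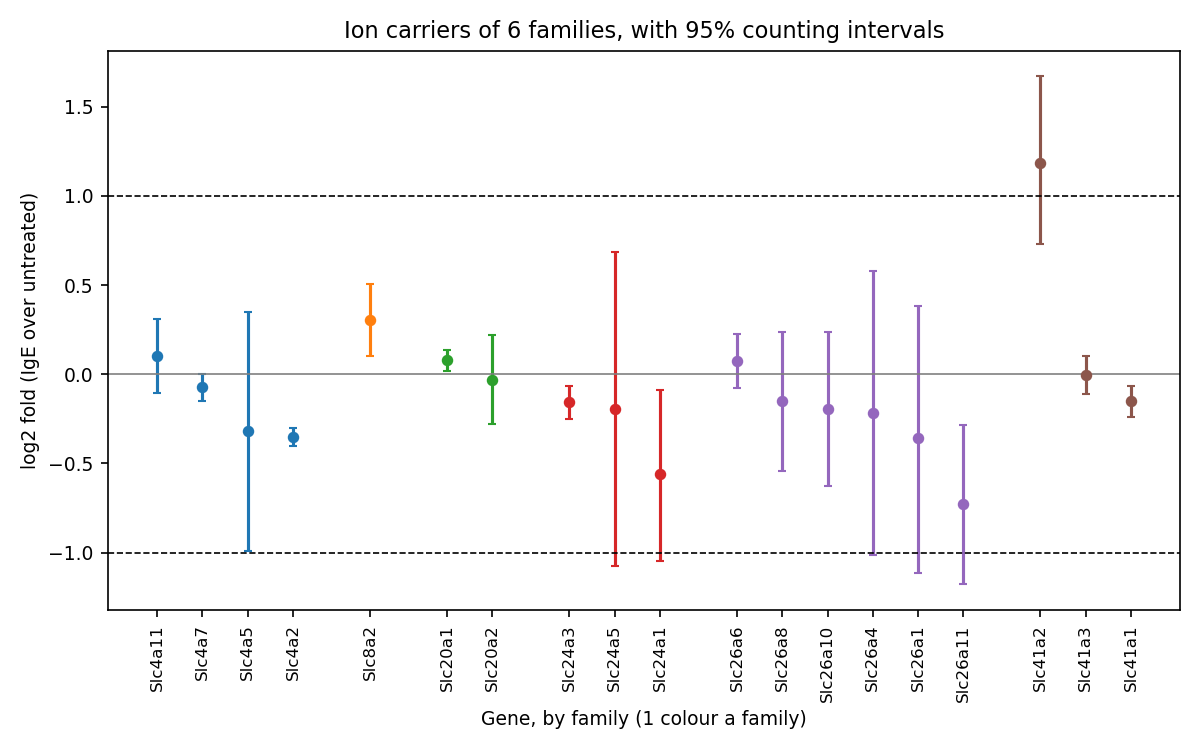
Log2 fold (IgE over untreated) of 19 inorganic ion carriers of 6 families (Slc4, Slc8, Slc20, Slc24, Slc26 and Slc41), with 95% counting intervals as bars, ordered by family and coloured by it, with dashed lines at 2-fold. Slc41a2 stands alone above the upper line. The 3 points of the Slc24 family all lie below 0, as do 21 of all 27 ion carriers, not all of which are plotted.

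The Slc4 family of bicarbonate carriers and their relatives included the lowest of the abundantly counted members. Slc4a2, the chloride-bicarbonate exchanger AE2, had 6375 reads in the IgE and 6518 in the untreated library, or 243 and 311 CPM. It was 1.28-fold lower with IgE (log2 -0.35, -0.40 to -0.30), the lowest log2 fold of the 67 solute carriers with 2000 or more reads. The sodium-bicarbonate cotransporter Slc4a7 was at 117 CPM with IgE and 123 CPM untreated (-0.07). Slc4a11, a relative in the family, was at 17.3 and 16.1 CPM (0.10, -0.11 to 0.31). Slc4a5 had 40 reads in each library (-0.32, -0.99 to 0.35).

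Cation-chloride cotransporters move chloride with sodium or potassium and set cell volume. Slc12a2, the inward sodium-potassium-chloride carrier NKCC1, stood at 219 CPM with IgE and 207 CPM untreated (log2 0.09, 0.03 to 0.14). Of the outward potassium-chloride carriers, Slc12a7 (KCC4) was lower, with 309 reads with IgE and 329 untreated, or 11.8 and 15.7 CPM (-0.41, -0.64 to -0.18). Slc12a4 (KCC1) was at 21.6 and 21.9 CPM, within 0.03 of 0 on the log2 scale.

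Sodium-proton exchangers remove acid from the cytosol or set the pH of organelles. Slc9a8, of the Golgi, was at 30.2 CPM with IgE and 34.5 CPM untreated (log2 -0.19, -0.34 to -0.04), and its interval excluded no difference. Slc9a5 had 88 reads with IgE and 91 untreated (-0.37, -0.81 to 0.07), and its interval included no difference.

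Calcium exchangers use the sodium gradient to move calcium out of the cytosol. Slc8a2, a sodium-calcium exchanger known from neurons, had 525 reads with IgE and 341 untreated, a log2 fold of 0.30 (0.10 to 0.50). The potassium-dependent exchangers were below 0 in 3 of 3 genes, namely Slc24a3 with 78.6 and 87.6 CPM (-0.16, -0.25 to -0.07), Slc24a1 with 70 and 83 reads (-0.56, -1.05 to -0.09), and Slc24a5 with 25 and 23 reads (-0.20, -1.08 to 0.68).

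Anion exchangers of the Slc26 family were below 0 in 5 of 6 genes. The lowest was Slc26a11, a sulfate and chloride carrier, with 76 reads with IgE and 101 untreated, or 2.90 and 4.81 CPM (log2 -0.73, -1.18 to -0.29). Its RefSeq span overlaps that of the lysosomal sulfamidase gene Sgsh, with 136 reads in each library (-0.32). Slc26a6, a chloride, bicarbonate and oxalate exchanger, was at 31.5 and 29.9 CPM (0.07, -0.08 to 0.23). The other 4 (Slc26a1, Slc26a4, Slc26a8 and Slc26a10) had 28 to 119 reads in a library, and their intervals all included no difference. Phosphate entered the data through Slc20a1, at 217 CPM with IgE and 205 CPM untreated (0.08, 0.02 to 0.14), and Slc20a2, at 11.3 and 11.6 CPM.

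Trace metal carriers lay slightly above 0. Of 21 genes 0 were 2-fold apart, 13 were above and 8 below 0, and the median log2 fold was 0.05. Slc39 proteins bring zinc into the cytosol and Slc30 proteins take it out or into vesicles. The highest was the zinc importer Slc39a5, with 531 reads with IgE and 313 untreated, or 20.3 and 14.9 CPM (log2 0.44, 0.24 to 0.65). Its RefSeq span overlaps that of Ankrd52, which had 4044 reads with IgE and 3802 untreated (-0.23). Slc39a13, a zinc carrier of the Golgi and vesicles, followed with 637 and 435 reads (0.23, 0.05 to 0.41). Slc39a8, which imports zinc, manganese and cadmium, was at 106 and 98.1 CPM (0.11, 0.02 to 0.19).

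The other zinc importers were close to level. Slc39a6 was at 117 CPM with IgE and 123 CPM untreated, Slc39a9 at 148 and 152 CPM, Slc39a10 at 76.0 and 77.2 CPM, and Slc39a14, which also carries iron, at 51.7 and 51.2 CPM. Slc39a11 was lower (log2 -0.17, -0.33 to -0.02), and Cog1, which overlaps it, had 1091 reads with IgE and 962 untreated (-0.14). Slc39a4, the intestinal zinc importer, was nearest to 2-fold lower (-0.96) but rested on 10 reads with IgE and 16 untreated, with an interval from -2.30 to 0.23.

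Zinc exporters showed 5 of 7 genes above 0. Slc30a4, a vesicular zinc carrier, was at 104 CPM with IgE and 95.4 CPM untreated (log2 0.12, 0.04 to 0.20), and Slc30a5, of the early secretory pathway, at 154 and 149 CPM (0.05). Slc30a6, the partner of Slc30a5, was at 22.1 and 20.2 CPM (0.13, -0.06 to 0.31). Slc30a7, of the Golgi, was lower, at 44.2 and 50.6 CPM (-0.19, -0.32 to -0.07). Slc30a1, the plasma membrane exporter whose gene is induced by zinc, was at 44.9 and 42.9 CPM (0.07, -0.06 to 0.19), and the vesicular carrier Slc30a2 at 111 CPM in both libraries. The copper importer Slc31a1 was at 71.5 and 65.7 CPM (0.12, 0.02 to 0.22). Slc11a2, the iron carrier DMT1, was at 47.8 and 48.2 CPM (-0.01).

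**Figure D4:**
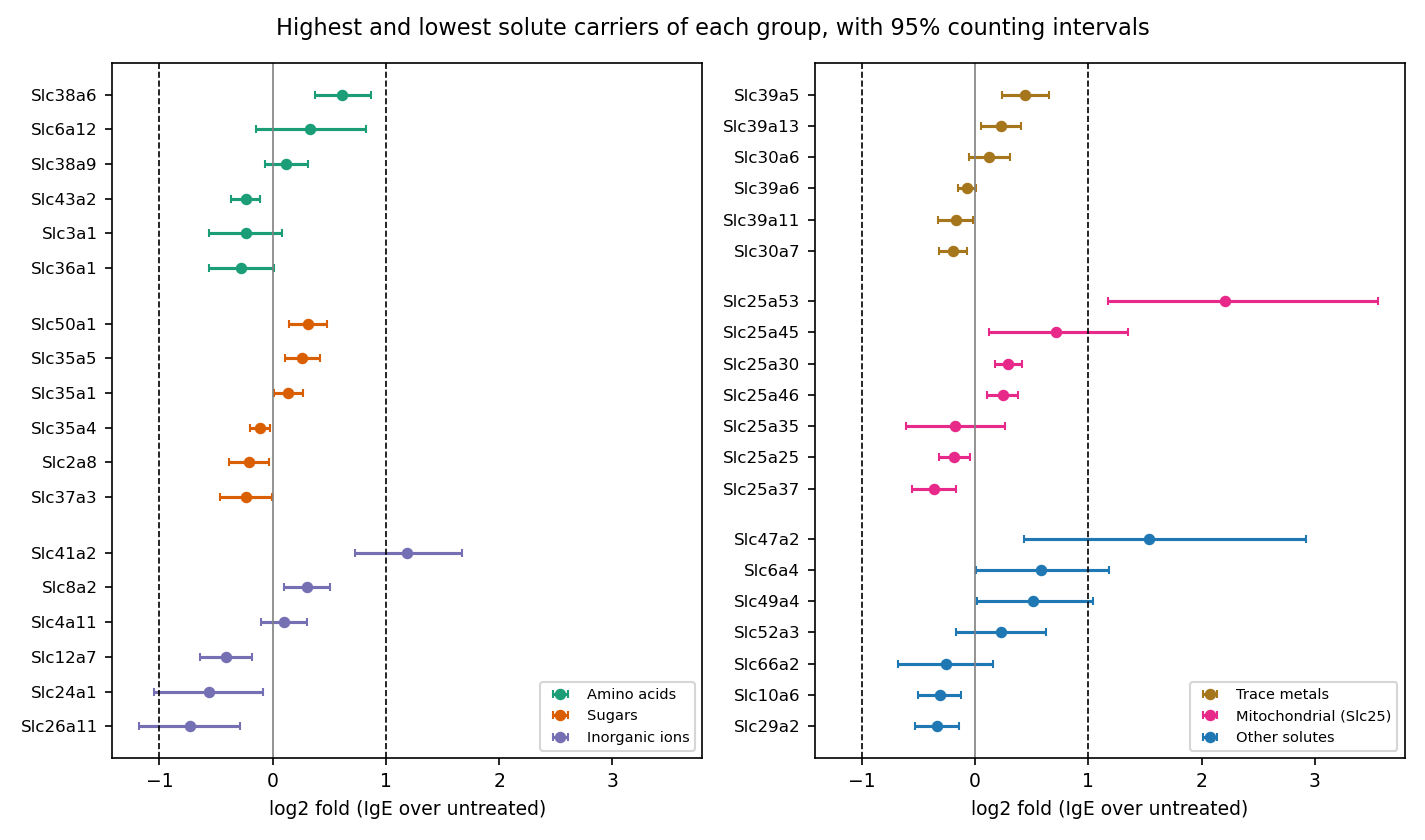
Log2 fold (IgE over untreated) of the 3 highest and 3 lowest genes with 100 or more reads in each solute group, and of every gene past 2-fold, with 95% counting intervals as bars and dashed lines at 2-fold. Most intervals lie inside the dashed lines, and those of Slc25a53 and Slc47a2 are the widest.

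Mitochondrial carriers were the largest family, with 35 of 37 genes over the minimum. Of these 35, 1, Slc25a53, passed 2-fold upward and 0 downward, 22 were above and 13 below 0, and the median log2 fold was 0.03. Their summed level was 2350 CPM in the IgE and 2232 CPM in the untreated library, of which Slc25a5, described below, held 683 and 623 CPM. Transcripts of the mitochondrial genome itself, made by a separate polymerase, had the median of 0.16 given above. The adenine nucleotide translocase Slc25a5, which exchanges ADP for ATP, had 17883 reads with IgE and 13083 untreated, or 683 and 623 CPM (log2 0.13, 0.10 to 0.16). Its muscle and heart form Slc25a4 was at 234 and 223 CPM (0.07, 0.01 to 0.12). Slc25a6, a further translocase, had 2 and 6 reads and was under the minimum. Reads of such near-identical genes and their copies may be split between names, so these values are uncertain.

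Other Slc25 genes with higher log2 folds had smaller counts. Slc25a45, a relative of the carnitine carriers, had 72 reads with IgE and 35 untreated (log2 0.71, 0.12 to 1.35). Slc25a30, a relative of the uncoupling proteins, was at 54.7 and 44.6 CPM (0.30, 0.18 to 0.42). Slc25a46, an outer membrane protein of mitochondrial dynamics, was at 42.1 and 35.5 CPM (0.24, 0.11 to 0.38). Sap130, whose span overlaps it, had 3063 reads with IgE and 2678 untreated (-0.13). Slc25a39, the glutathione carrier, was at 143 and 136 CPM (0.08, 0.01 to 0.15), and its relative Slc25a40 at 29.1 and 25.4 CPM (0.20, 0.04 to 0.36). The S-adenosylmethionine carrier Slc25a26 (0.21) and the pyrimidine nucleotide carriers Slc25a33 (0.20) and Slc25a36 (0.14) had intervals that included no difference.

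The lowest mitochondrial carrier with 100 or more reads was Slc25a37, mitoferrin 1, which brings iron to heme synthesis. It had 446 reads with IgE and 459 untreated, or 17.0 and 21.9 CPM (log2 -0.36, -0.55 to -0.17). Its paralog Slc25a28, mitoferrin 2, was level at 36.5 and 36.4 CPM. Slc25a38, the glycine carrier of the same pathway, was level too, at 31.9 and 31.8 CPM. Slc25a25, a calcium-regulated ATP-magnesium and phosphate carrier, was at 35.2 and 40.0 CPM (-0.18, -0.32 to -0.05), against 72.4 and 71.4 CPM for its paralog Slc25a24. Slc25a35 had 94 and 85 reads (-0.17), while Rangrf, which overlaps it, had 566 and 338 (0.42), and Slc25a47, a liver carrier, 28 and 37 reads (-0.71, -1.48 to 0.03).

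The metabolite shuttles of the inner membrane were within 0.13 of 0 on the log2 scale. The aspartate-glutamate carriers Slc25a12 and Slc25a13 were at 57.4 and 86.7 CPM with IgE and at 62.2 and 86.1 CPM untreated. Slc25a11, which exchanges oxoglutarate for malate, was at 97.8 CPM with IgE and 93.6 CPM untreated, the citrate carrier Slc25a1 at 56.5 and 58.4 CPM, and the dicarboxylate carrier Slc25a10 at 63.3 and 62.1 CPM. The carnitine carrier Slc25a20 was at 33.1 and 31.3 CPM (0.08), the glutamate carrier Slc25a22 at 34.9 and 38.1 CPM (-0.13), and the folate and FAD carrier Slc25a32 at 80.4 and 77.4 CPM (0.06). Slc25a17, the peroxisomal member of the family, was at 243 and 224 CPM (0.12, 0.06 to 0.17).

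**Figure D5:**
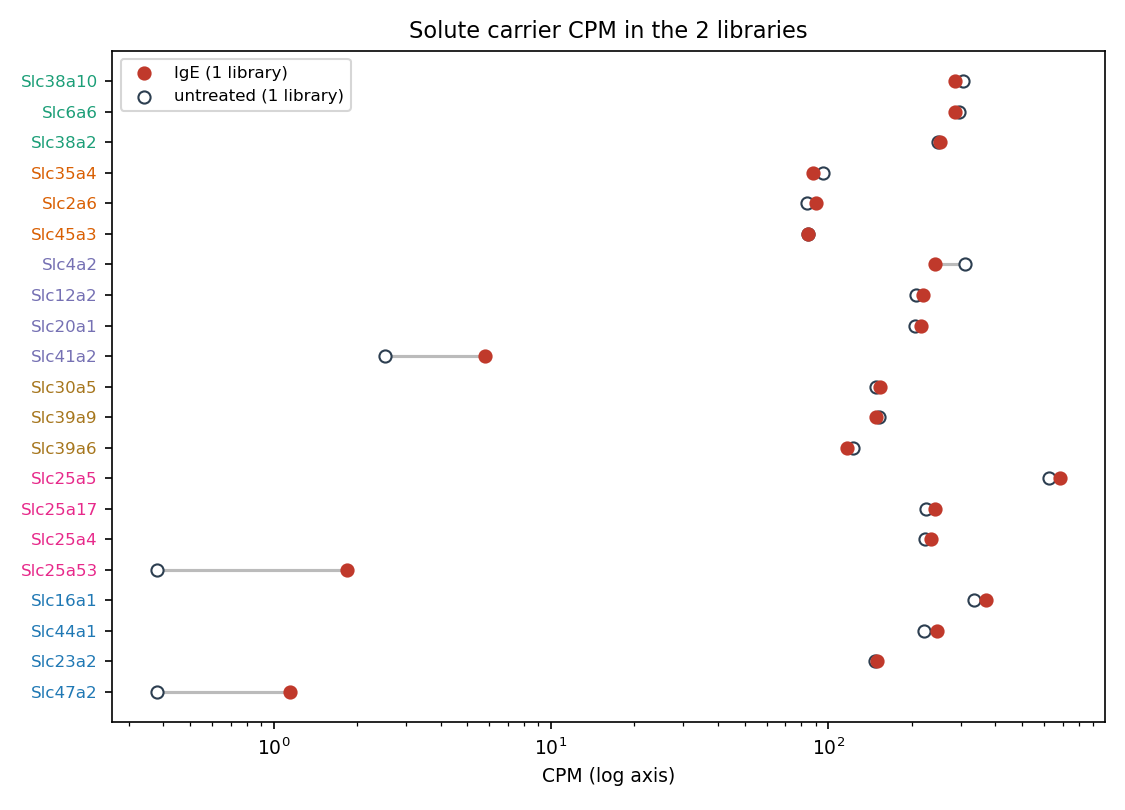
CPM on a log axis in the IgE library (filled) and the untreated library (open) for the 3 genes of each solute group with the highest mean CPM and the 3 genes past 2-fold, with names coloured by group. The pairs nearly coincide except for Slc41a2, Slc25a53 and Slc47a2, and Slc4a2 is separated to the left with IgE. CPM is not corrected for transcript length, so rows are not to be ranked against each other.

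The carriers of other solutes were 42 genes, of which 1, Slc47a2, passed 2-fold upward and 0 downward. They had 25 log2 folds above and 17 below 0 and a median of 0.06. Slc16a1, the lactate and pyruvate carrier MCT1, had 9687 reads with IgE and 7058 untreated, or 369.9 and 336 CPM (log2 0.14, 0.09 to 0.18). Slc44a1, the choline carrier, was at 246 and 221 CPM (0.16, 0.10 to 0.21), while the choline carrier family members Slc44a2 and Slc44a5 were both at -0.22, with intervals of -0.36 to -0.07 and -0.41 to -0.03. Slc23a2, the ascorbate carrier, stood at 150.3 and 148 CPM.

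Amine transporters are of interest in a cell that stores histamine and serotonin. Slc6a4, the serotonin reuptake carrier, had 73 reads with IgE and 39 untreated, or 2.79 and 1.86 CPM (log2 0.58, 0.01 to 1.18). Slc18a1, the vesicular monoamine carrier VMAT1, was at 16.0 and 15.2 CPM (0.07). Slc29a4, the plasma membrane monoamine carrier, was at 10.1 and 10.8 CPM (-0.09). Slc6a3, the dopamine carrier, had 15 and 10 reads and was the member nearest the minimum from above, while Slc36a3, with 10 and 6 reads, was nearest from below.

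Nucleosides, vitamins and lipids had their own carriers in the group. The equilibrative nucleoside carrier Slc29a2 was lowest with 100 or more reads, with 423 reads with IgE and 428 untreated (log2 -0.34, -0.53 to -0.14), and the lysosomal Slc29a3 had 201 and 138 reads (0.22, -0.10 to 0.55). Slc10a6, a carrier of sulfated steroids, had 450 and 448 reads (-0.31, -0.50 to -0.12). Slc27a1, a fatty acid carrier, was at 42.1 and 49.9 CPM (-0.25, -0.37 to -0.12), and Slc15a4, which carries histidine and peptides out of endolysosomes, at 21.3 and 24.7 CPM (-0.21, -0.39 to -0.04). The folate carrier Slc19a1 (0.05), the thiamine carrier Slc19a2 (0.14) and the riboflavin carriers Slc52a2 (0.09) and Slc52a3 (0.23) had intervals that included no difference. Slc33a1, which brings acetyl-CoA into the endoplasmic reticulum, was at 28.1 and 24.4 CPM (0.20, 0.04 to 0.37). Slc49a4 had 93 and 52 reads (0.52, 0.01 to 1.04), and Slc66a2 101 and 97 reads (-0.26).

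Of the 3 suffixed names, Slc9a3r1, the scaffold protein NHERF1, was at 122 CPM with IgE and 136 CPM untreated (log2 -0.16, -0.23 to -0.09). Slc7a6os was at 37.8 and 33.4 CPM (0.18, 0.04 to 0.32) and Slc4a1ap at 64.0 and 61.6 CPM (0.06). The 20 names under the minimum had at most 16 reads over both libraries. Among them Slc22a13 had 7 reads with IgE and 0 untreated, Slc46a3 0 and 6, and Slc16a5 1 and 7. These 3 were in the authors' deposited selection, which held 451 of the 14913 distinct names, beside the 3 members past 2-fold. A count of 3 reads, taken as the floor of detection, is 0.115 CPM in the IgE and 0.143 CPM in the untreated library.

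Promoter letters were compared over the members as a property that their choice did not use. Of the 169 genes 134 had a RefSeq promoter entry. The E-box CACGTG, the same on both strands, stood within the 250 bases before the start in 21 of these 134 (15.7%), against 727 of 8560 tested genes with an entry (8.49%). By solute it was present in 5 of 21 amino acid carriers, 3 of 16 ion carriers, 3 of 18 metal carriers, 1 of 15 sugar carriers, 1 of 28 mitochondrial carriers and 8 of 34 others. The AP-1 site was present in 9 of the 134 members (6.72%) and in 4.14% of the tested genes. The cAMP response element was present in only 3 members (2.24%, against 3.03%), and the EGR site in only 2 (1.49%, against 0.935%). Members with an E-box had a median log2 fold of -0.02 and those without one 0.00. Examples of 30 bases with the E-box in capitals are shown for 5 carriers, of which Slc7a5, Slc1a4 and Slc36a1 carry amino acids, Slc30a5 zinc and Slc16a1 lactate, on GRCr8 at chr2:194812432-194812461 (Slc16a1, plus strand), chr19:66872574-66872603 (Slc7a5, minus), chr14:98761565-98761594 (Slc1a4, minus), chr10:39824982-39825011 (Slc36a1, plus) and chr2:33710043-33710072 (Slc30a5, minus).
Slc16a1: gcagcgcctagtCACGTGgcgggaaggggg
Slc7a5: catcatacgctcCACGTGcttcaacagacc
Slc1a4: gtccaagttcctCACGTGctgctgcttaga
Slc36a1: ggagtggagcggCACGTGacttgggctccg
Slc30a5: gccgagaggagaCACGTGtccagctgcgcg
These 5 carriers had log2 folds between -0.28 (Slc36a1) and 0.14 (Slc16a1). All 21 members with an E-box ranged more widely, from -0.41 to 1.54.

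Genes that work with the solute carriers were described in the same way, beside the 1.33% of all tested genes that passed 2-fold upward and the 1.30% that passed it downward. Of 41 measured transporters of the same superfamily under other names, 0 passed 2-fold upward and 1 downward, the organic anion carrier Slco4c1 with 3 reads with IgE and 23 untreated, and the median was 0.04. In this list the mitochondrial pyruvate carrier subunits Mpc1 and Mpc2 had log2 folds of 0.00 and 0.30, and the uncoupling protein Ucp2 -0.04. Of 19 partners and regulators, 1 was at least 2-fold lower, the kinase Sgk2 with 29 reads with IgE and 53 untreated (log2 -1.17, -1.90 to -0.51), and the median was 0.02. The kinases that act on cation-chloride carriers were near 0, with Wnk1 at -0.05, Oxsr1 at -0.08 and Stk39 at 0.11, and so was Bsg, the chaperone of the lactate carrier Slc16a1, at 0.08.

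The pumps that build the gradients and the lysosomal amino acid sensing machinery held 0 genes 2-fold apart among 21 and 31 measured, where those shares of all tested genes would give fewer than 1 in each direction. Over 21 measured sodium and proton pump genes the median log2 fold was 0.08. The highest was Atp6ap2 at 0.31, and the lowest were 2 weakly counted genes, Atp6v1g2 (27 reads with IgE and 40 untreated, -0.87) and Atp1b2 (58 and 68 reads, -0.54). Over 31 genes of amino acid sensing by mTORC1 the median was -0.01. In that list the Ragulator subunits were all above 0, from Lamtor2 (0.18) to Lamtor1 (0.37), and Mtor itself was at -0.07.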

How the data were processed

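The authors deposited raw read counts per gene name for the 2 libraries, and beside them a p-value (also in adjusted form) and the log2 ratio for each gene, per the file headers. HISAT2 2.1.0, fastp 0.23.0 and DESeq2 1.18.1 are listed, with rn6 as the build, per the submitters' processing notes. The counting tool was not given in the sources used here, nor was its strand setting. Of 16990 rows, 14913 distinct names were kept once each. Log2 CPM were computed with edgeR 4.0.16 in R 4.3.3 with TMM scaling on all names and a prior of 0.5 counts, and a minimum of 20 reads over both libraries was applied. With 1 library a group no test was made. Differences were described by a 2-fold rule and by exact Clopper-Pearson 95% intervals of the read ratio. The calculation was tested on simulated data. Genes named by rule were those past 2-fold and, in each solute group, the 3 highest and 3 lowest log2 folds with 100 or more reads and the 3 highest mean CPM. Further genes were named after their values were seen. The members and lists were chosen with earlier results of these data known. Folds against coding length and levels per length were planned and not run, since no transcript lengths were used here. Alternatives were library totals, DESeq2 1.42.0 size factors, a prior of 5 counts, other minimums, and a 1.5-fold rule. Promoter windows came from RefSeq (GRCr8), with the first entry used where a gene had several. Some members are not reported here by name.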

Additional observations from a re-analysis of the deposited data

How the results depend on the processing

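With no minimum of reads, 6 solute carriers passed 2-fold upward with IgE and 8 downward, in place of 3 and 0. The shares over all genes were not computed without the minimum. With a minimum of 100 reads there was 1 higher. A 1.5-fold rule gave 5 higher and 5 lower. Library totals, DESeq2 size factors, a prior of 5 counts and the demand that the counting interval exclude no difference all gave 3 and 0, as did keeping the repeated rows, which was added after the data were seen. Of 56 alternative medians of the members and solute groups 56 lay between the medians of the members' lower and upper interval bounds, with a largest shift of 0.0795 (ion carriers with 100 or more reads) and a changed sign in 3, all of the overall median, which lies near 0. Of 165 alternative log2 folds of the genes named by rule that were recomputed here, 0 changed sign and all stayed within the gene's counting interval. These checks could hardly fail. The bounds set around the medians are those of single genes and do not measure the uncertainty of a median. Library totals and DESeq2 size factors shift every gene by nearly the same small amount. Over all tested genes the median log2 fold was 0.005 with TMM, -0.004 with library totals and 0.002 with DESeq2 size factors. Over all 169 members, library totals turned the sign of 5 (Slc7a5, Slc7a6, Slc30a2, Slc25a28 and Slc25a38), the farthest of which was 0.0079 from 0, and DESeq2 size factors and the prior of 5 counts that of 0. In the authors' deposited selection were 3 of the 169 members, and also Slc22a13, Slc46a3 and Slc16a5, which were under the minimum. The selection held 451 of the 14913 distinct names, which, unlike the 169, include names under the minimum. No paired analysis was possible because IgE-treated and untreated cells have a single library each, which also means that none could be left out. Counting error limits the genes with under 100 reads, and variation between cultures was not measured.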
